A study of Homo sapiens with 647 samples.

Results

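FIIN-3, a covalent inhibitor of the FGF receptor kinases that is also known to act on EGFR, was added for 24 h to T47D cells that carried FGFR2 M538I and were held in fulvestrant plus FGF2. The comparison set 6 libraries with FIIN-3 against 6 libraries of the same line and medium without it, chosen by their titles, so 12 of the 647 libraries in the series entered. T47D is an estrogen receptor positive breast cancer line. All groups described below are T47D derivatives. The receptor lines (FGFR2 wild type, M538I and N550K) and the GFP line were made by lentiviral transduction with pLX307 constructs, and the parental line was the other control. The 2 main groups both received fulvestrant, an estrogen receptor degrader (100 nM), and FGF2, whose dose is not given in the sources used here, and 1 of them also received FIIN-3 (100 nM). For reference, M538I libraries with fulvestrant alone, with fulvestrant plus FGF2 plus the MEK inhibitor trametinib (500 nM), with FGF2 alone and with FGF2 plus FIIN-3 were used (6 libraries each), together with fulvestrant plus FGF2 with and without FIIN-3 in the wild-type and N550K lines (6 and 6 each), in GFP (6 without and 5 with FIIN-3) and in the parental line (6 and 6). The labels name 1 line per construct and do not say whether it was a clone or a pool, nor whether replicates were separate cultures, so p-values measure only the spread between these libraries, which may be technical.

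FGF receptors are tyrosine kinases that, once bound by an FGF, pass the signal through the adaptor FRS2 to the RAS, RAF, MEK and ERK cascade and to PI3K. ERK switches on genes that dampen it again, those of the dual-specificity phosphatases (DUSP) and of the Sprouty and SPRED proteins. It also switches on the ETS factors ETV4 and ETV5. The transcripts of all these genes are widely used as readouts of ERK activity. In luminal breast cancer cells ERK signalling also feeds cyclin D1 and entry into the cell cycle, which estrogen receptor drugs otherwise restrain.

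Total counts were 6069331 to 8059858 in the libraries without FIIN-3 and 4632943 to 10494345 in those with it, and replicates within a group correlated at 0.927 to 0.982 and at 0.950 to 0.982 (Pearson, across genes). The mitochondrial 16S ribosomal RNA, MT-RNR2, took 8.83 to 21.1% of counts without FIIN-3 and 17.7 to 25.9% with it. Its part in the results was not tested. The sample titles carry running numbers, here divided into ranges of 96. The first and the fourth range held 2 libraries of each main group, while the second and the third held 2 libraries of 1 group only, and the labels do not say what the numbers mark. FGFR2, counted without regard to the allele, stood at a scaled CPM (count per 1000000 counts of the library) of 135.6 to 759.6 (median 338.2) without FIIN-3 and 265.9 to 734.4 (median 468.1) with it, against 3.66 to 21.99 in the GFP and parental libraries given fulvestrant plus FGF2. The log2 fold change of FGFR2 was 0.24 ± 0.33 (standard error; adjusted p = 0.621), so FGFR2 was high in both groups and a difference in its transcript was not detected; counts cannot show the allele. FGF2, the added ligand, had 0 reads in the 6 libraries without FIIN-3 and 2 in those with it. Of 12 markers of immune, endothelial and stromal cells, COL1A2 and PECAM1 had no read in any of the 12 libraries, and the 12 markers together summed to 24.0 to 43.5 CPM without and 29.6 to 43.8 with FIIN-3. The summed level of 8 epithelial markers was 43380 to 91490 without and 26200 to 36660 CPM with FIIN-3, the lower level coming with the keratin genes KRT8 and KRT18 described below.

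FIIN-3 changed a large part of the transcriptome. With edgeR's quasi-likelihood test, 1997 genes were higher and 2236 lower at an adjusted p (Benjamini-Hochberg) under 0.05, out of 12405 genes tested, which is 16.1% and 18% of them, or 34.1% together. Of these, 887 rose and 916 fell at least 2-fold, and 5.91% of the higher and 9.03% of the lower genes changed at least 4-fold. A test with limma on the deposited log2(TPM + 1) values gave a similar total with another split, 1530 higher and 2723 lower. When only the title ranges with both groups were kept, with 4 libraries a group, 1024 genes were higher and 1381 lower. In what follows, "rose", "fell", "higher" and "lower" refer to genes called by the edgeR test, a value with ± is a log2 fold change and its standard error, and levels are CPM scaled by TMM over all libraries used. For every count of list members in this comparison, the shares of all genes are 16.1% higher and 18% lower.

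The promoters shown here belong to genes of 3 groups described below, the ERK readouts, the G1/S genes and the G2/M genes, in each of which members fell and none rose. They are the 150 bases directly upstream of a RefSeq start, on GRCh38.p14 (the counts were made on hg19), written 5′ to 3′ on the strand of the gene: DUSP6 at chr12:89352502-89352651 (minus strand), E2F1 at chr20:33686386-33686535 (minus), RRM2 at chr2:10122589-10122738 (plus), PLK1 at chr16:23678739-23678888 (plus) and CCNB2 at chr15:59104996-59105145 (plus). Capitals mark matches on either strand to CCAAT in all 5 (ATTGG on the other strand), to the E2F motif (TTTCCCGC or TTTGGCGC) in E2F1, and to the CHR element of cell cycle genes (TTTGAA) in PLK1 and CCNB2.
DUSP6: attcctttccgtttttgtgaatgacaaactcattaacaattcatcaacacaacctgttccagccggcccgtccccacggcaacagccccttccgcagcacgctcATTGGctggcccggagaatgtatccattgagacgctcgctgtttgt
E2F1: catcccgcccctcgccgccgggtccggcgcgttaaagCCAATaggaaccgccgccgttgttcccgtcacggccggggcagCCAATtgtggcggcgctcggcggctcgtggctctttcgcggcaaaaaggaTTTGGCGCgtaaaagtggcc
RRM2: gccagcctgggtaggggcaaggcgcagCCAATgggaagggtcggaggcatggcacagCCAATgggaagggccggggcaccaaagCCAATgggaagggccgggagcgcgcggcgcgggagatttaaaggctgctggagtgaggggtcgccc
PLK1: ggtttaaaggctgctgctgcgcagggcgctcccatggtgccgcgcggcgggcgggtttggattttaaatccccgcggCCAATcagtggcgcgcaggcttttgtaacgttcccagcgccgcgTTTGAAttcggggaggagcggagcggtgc
CCNB2: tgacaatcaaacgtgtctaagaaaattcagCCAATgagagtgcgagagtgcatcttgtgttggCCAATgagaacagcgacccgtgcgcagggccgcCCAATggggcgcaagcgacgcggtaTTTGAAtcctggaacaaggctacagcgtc
Within 250 bases upstream of any listed start, the E2F motif was found in 11 of the 20 G1/S genes that fell and had an entry, against 2.36% of the 27305 genes in the table. The CHR letters were found in 10 of 18 G2/M genes that fell (55.6%), against 16.1% of all genes, and CCAAT in 16 of those 18 (88.9%), against 10102 of the 27305. The ETS motif CCGGAAGT was in 0 of the 3 ERK feedback genes with an entry and in 4.13% of all genes. Some genes have several listed starts, and a gene counts where any of them holds the letters. A match is a string of letters in a window and not a bound site. As 25 of 26 G1/S and all 24 G2/M members fell, members that fell could not be set against members that did not. These shares thus describe the gene lists and not the effect of FIIN-3. The 27305 genes also differ from the 12405 tested.

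Most ERK readouts fell, several of them to near 0. DUSP6, the phosphatase that removes the activating phosphates from ERK, was at 82.7 to 117.9 CPM (median 89.3) without FIIN-3 and at 1.17 to 4.80 (median 2.53) with it. The groups lay far apart, and the fold change was -4.94 ± 0.25 (adjusted p = 4.9e-11). DUSP4, a nuclear ERK phosphatase, stood at 140.3 to 179.3 CPM and then at 14.9 to 20.2, a fold change of -3.20 ± 0.14. SPRY4, a Sprouty inhibitor of receptor signalling, was at 7.44 to 18.2 CPM without FIIN-3 and at 0 to 0.391 with it, with a median of 0. The ETS factor ETV4 went from 8.73 to 19.6 CPM down to 0 to 0.781 (-4.95 ± 0.39), and ETV5 from 1.90 to 4.03 down to 0 to 0.279. DUSP5 (-2.39 ± 0.38) and SPRED2 (-1.81 ± 0.19) fell as well. In all, 7 of the 12 tested members of the feedback and ETS list fell and 0 rose, with a median of -2.10 against 0.0062 over all genes tested. The other 5 did not pass (DUSP7, SPRY1, SPRY2, PHLDA1 and SH2B3, with values of -0.74 to 0.05). PHLDA1, an early ERK target, was at 35.4 to 64.4 CPM without and 37.9 to 47.1 with the inhibitor.

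**Figure D1:**
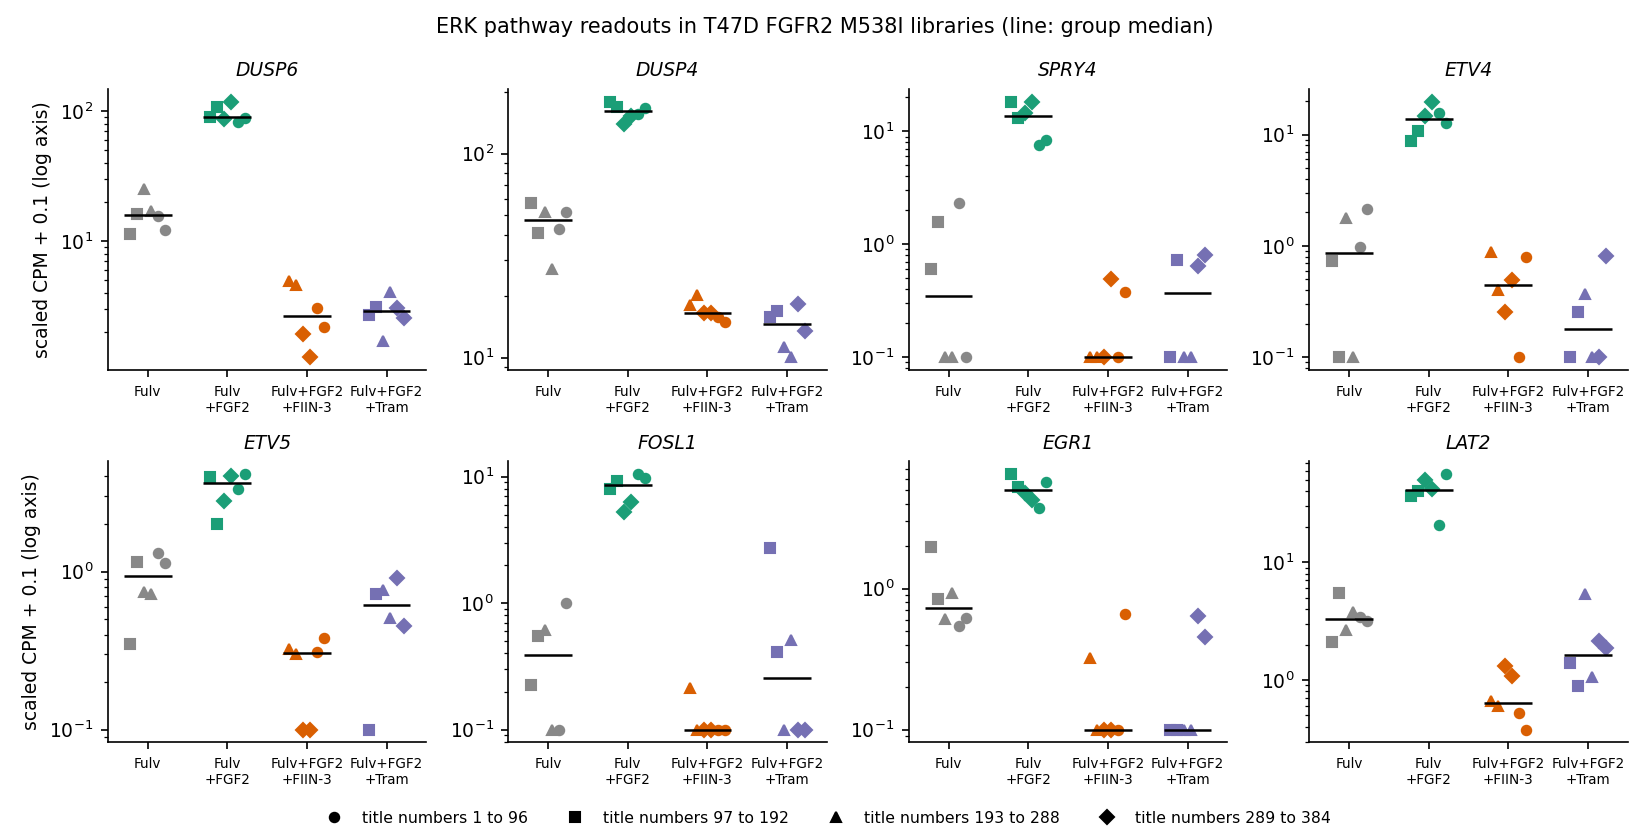
Scaled CPM plus 0.1 on a log axis for 8 genes in the M538I libraries given fulvestrant, fulvestrant plus FGF2, and that medium plus FIIN-3 or trametinib. Each point is a library, its shape gives the title-number range, and lines are group medians. For DUSP6 the FIIN-3 libraries sit between 1.17 and 4.80 CPM, below those with fulvestrant alone at 11.3 to 25.2.

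Among immediate early genes, which answer ERK within minutes and include those of the AP-1 factors, more fell than rose. FOSL1, the AP-1 subunit most closely tied to ERK, was at 5.11 to 10.3 CPM in the 6 libraries without FIIN-3 and had 1 read in all 6 with it. The ratio of its reads, scaled by depth, was 335.6, with a 95% interval of 59.9 to 13290 (exact binomial, counting error only). EGR1, a zinc finger immediate early factor, was at 3.60 to 6.36 CPM without and 0 to 0.558 with FIIN-3 (-4.93 ± 0.57). FOS, at 3.04 to 5.94 CPM without FIIN-3, had 6 reads in 1 library with it and 0 in the other 5 (-4.70 ± 0.68). JUNB (-1.91 ± 0.37), IER2 (-1.27 ± 0.21) and IER3 (-1.37 ± 0.14) fell too. In the other direction MYC, a transcription factor of cell growth, rose from 10.4 to 15.1 CPM up to 16.4 to 28.4 (0.83 ± 0.19, adjusted p = 0.00185), and FOSL2 rose by 0.83 ± 0.24. Thus 6 of 12 tested members fell and 2 rose, while JUN, ATF3, SRF and MCL1 lay between -0.15 and 0.16 and did not pass. Of all genes tested 18% fell and 16.1% rose, so the share that rose was close to that of all genes.

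Of the FGF receptor genes, FGFR4 alone passed the test. FGFR1 (0.14 ± 0.23) and FGFR3 (-0.84 ± 0.46) did not pass the test, nor did FRS2 (0.59 ± 0.26), GRB2 (-0.31 ± 0.14) and SOS1 (0.61 ± 0.26), which link the receptor to RAS, though FRS2 and GRB2 passed with the title ranges in the fit (adjusted p = 0.0385 and 0.048, edgeR). FGFR4 rose by 1.07 ± 0.26, from 10.5 to 37.3 CPM up to 36.5 to 62.3, ranges that just overlapped. FGF12, an intracellular FGF homologue that is not secreted, rose by 2.86 ± 0.28. The adaptor SHC1 fell by 0.50 ± 0.15, a call lost when the title ranges entered the fit (-0.38, adjusted p = 0.12, edgeR).

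The receptor genes ERBB2, ERBB3, ERBB4 and INSR rose, while the ligand genes AREG, HBEGF and TGFA fell. ERBB2 was at 54.2 to 105.4 CPM without FIIN-3 and at 155.2 to 234.7 with it, 1.27 ± 0.18 on the log2 scale (adjusted p = 1.8e-05). ERBB3, its main partner, rose by 0.88 ± 0.17, ERBB4 by 1.80 ± 0.38 and the insulin receptor INSR by 1.03 ± 0.20. PIK3IP1, an inhibitor of PI3K, went from 0.288 to 6.95 CPM up to 16.03 to 21.9 (2.39 ± 0.34), and IGFBP5, an IGF binding protein, rose by 1.47 ± 0.14. Among the EGFR ligands AREG was at 77.9 to 216.7 CPM without and 4.30 to 67.7 with FIIN-3 (-2.31 ± 0.43), and HBEGF (-2.16 ± 0.42) and TGFA (-1.02 ± 0.36) fell, the last with its call lost in 5 of the 12 fits that left out 1 library (highest adjusted p = 0.105, edgeR). ERRFI1, which blocks EGFR kinase activity and is itself induced by ERK, fell by 2.21 ± 0.20. EGFR (0.60 ± 0.28) and IGF1R (0.19 ± 0.25) did not pass, so that 7 of 14 tested members rose and 5 fell. Of those 12 calls, IRS1 and GRB10 (-0.94 ± 0.35 and 0.82 ± 0.24) were lost with the title ranges in the fit, at adjusted p = 0.438 and 0.134 in edgeR.

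The cell cycle genes fell almost as a block. Of 26 genes of the G1 to S transition and of DNA replication, all tested, 25 fell, 0 rose and the exception was CDK6 (-0.14 ± 0.32), with a list median of -1.56. Cyclin D1, CCND1, which activates CDK4 and CDK6 in G1, was at 190.3 to 282.8 CPM without and 41.98 to 56.2 with FIIN-3 (-2.08 ± 0.15, adjusted p = 6.2e-09). RRM2, the S phase subunit of ribonucleotide reductase, was at 430.6 to 624.2 CPM and then at 38.9 to 77.5 (-3.08 ± 0.16). E2F1, which turns on the S phase genes, was at 14.98 to 35.5 CPM and then at 2.54 to 9.45 (-1.85 ± 0.26). The MCM helicase genes MCM2 to MCM7 fell by 1.06 to 1.496. CDK4 made the smallest of the 25 falls (-0.37 ± 0.14), and its call was lost with the title ranges in the fit (adjusted p = 0.129, edgeR).

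All 24 genes of G2 and mitosis fell, by 1.05 to 2.78, with a median of -1.79. MKI67, the Ki-67 proliferation antigen, was at 61.8 to 161.5 CPM without and at 16.1 to 30.5 with FIIN-3 (-2.24 ± 0.20). AURKB, the kinase of the chromosomal passenger complex, was at 85.96 to 149.9 CPM and then at 13.8 to 18.7 (-2.78 ± 0.17). PLK1, the mitotic polo-like kinase, was at 199.3 to 320.01 CPM and then at 28.5 to 59.4 (-2.31 ± 0.18), and the mitotic cyclin gene CCNB2 fell by 1.64 ± 0.14. None of these 4 genes overlapped between the groups, but the share of all genes without overlap was not counted. In bulk RNA, fewer cells in cycle and less RNA per cycling cell cannot be told apart.

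Among genes that restrain the cycle, more rose than fell. CDKN1A, which encodes the CDK inhibitor p21, fell from 108.9 to 155.4 CPM to 25.96 to 43.5 (-1.91 ± 0.16), and CDKN1B, encoding p27, did not pass (0.53 ± 0.26). The antiproliferative gene BTG1 was at 14.8 to 33.1 CPM without and 73.3 to 120.2 with FIIN-3 (2.19 ± 0.20), and CCNG2, an atypical cyclin of quiescent cells and a FOXO target, was at 5.47 to 10.2 and then at 28.5 to 35.1 (2.01 ± 0.18). TP53INP1 (1.86 ± 0.19), PDCD4 (1.58 ± 0.18), BTG2 (1.63 ± 0.23) and BCL6 (1.305 ± 0.15) rose as well. In all 9 of 17 tested members rose and 3 fell (CDKN1A, CDKN2D and KLF6), with a median of 0.78. Of all genes tested 16.1% rose and 18% fell, so the share that fell was close to that of all genes. The call of CDKN2D (-1.06 ± 0.32) was lost with the title ranges in the fit (adjusted p = 0.209, edgeR).

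**Figure D2:**
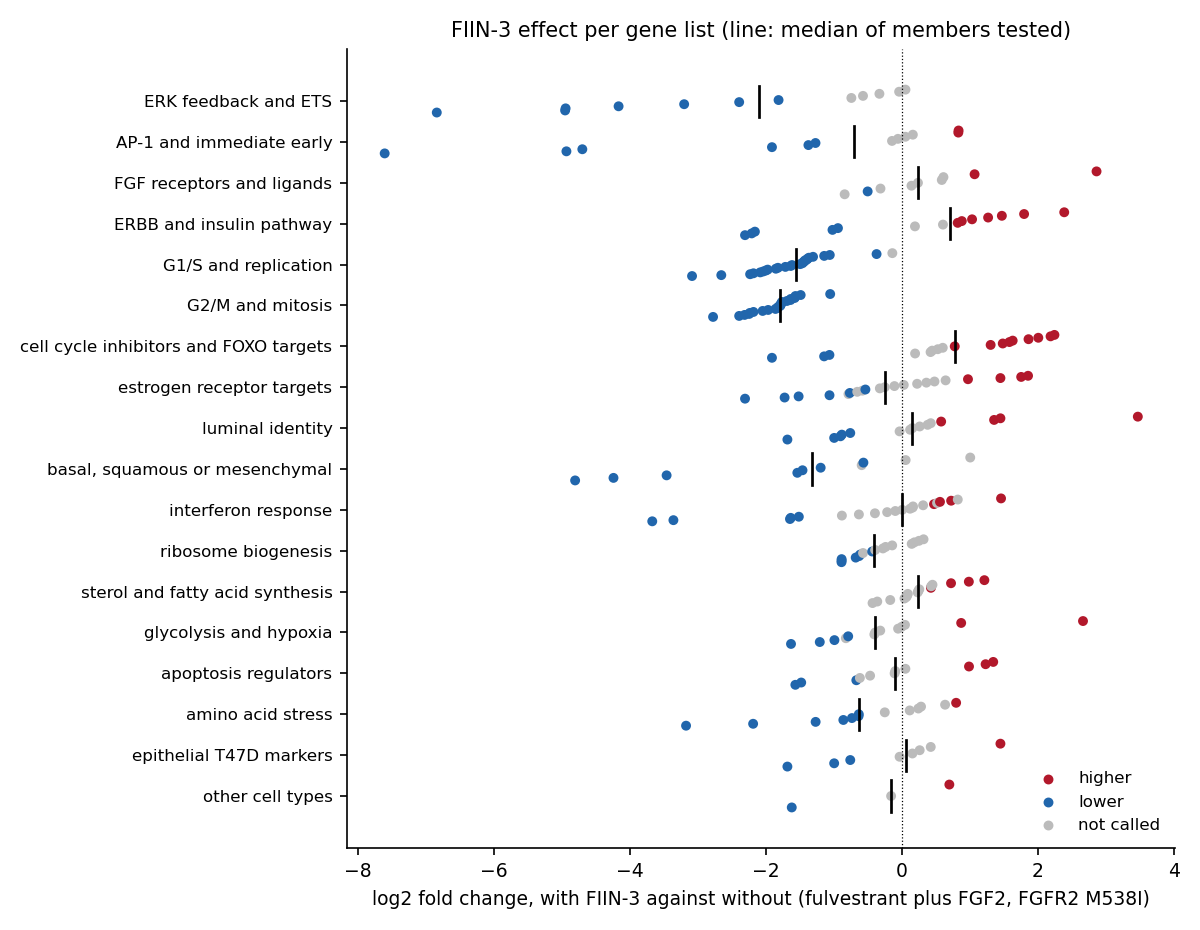
Log2 fold change with FIIN-3 against without it for each tested member of 18 gene lists, with blue for lower, red for higher and grey for not called at an adjusted p under 0.05. Vertical strokes are list medians. The G1/S and G2/M lists lie left of 0 at -1.56 and -1.79, while the cell cycle inhibitor and FOXO list lies at 0.78.

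Among estrogen receptor targets, with fulvestrant present in both groups, 4 of 21 tested members rose and 6 fell, with a median of -0.25. The share that rose was close to the 16.1% of all genes tested. ESR1, which encodes the receptor, was at 10.8 to 28.1 CPM without and 34.8 to 57.8 with FIIN-3 (1.45 ± 0.21, adjusted p = 2.3e-05). PGR, the progesterone receptor gene and a textbook estrogen target, was at 14.3 to 29.8 and then at 49.5 to 84.7 CPM (1.75 ± 0.20). SCUBE2 (1.85 ± 0.33) and GREB1 (0.97 ± 0.22), both induced by estrogen, rose too. AREG, AGR2 (-1.72 ± 0.20), OLFM1, IGFBP4 (-1.06 ± 0.19), SLC7A5 and CA12 fell. CA12 (-0.76 ± 0.25) lost its call with the title ranges in the fit (adjusted p = 0.289, edgeR).

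In the luminal list, which ESR1 shares with the estrogen list, 4 of 15 tested members rose and 5 fell, with a median of 0.15. The shares over all genes tested were 16.1% and 18%. KRT4, ELF5 (1.36 ± 0.13) and PIP (0.58 ± 0.19) rose with ESR1, and AZGP1 and EPCAM fell with 3 keratins. The call of PIP was lost with the title ranges in the fit (adjusted p = 0.103, edgeR). KRT18 and KRT8, the luminal keratin pair, fell by 1.68 ± 0.21 and 1.00 ± 0.18, and KRT7 by 0.88 ± 0.12, while KRT19 (0.15 ± 0.19), GATA3 (-0.03 ± 0.20) and FOXA1 (0.26 ± 0.23) did not pass. KRT4, a keratin of stratified mucosa, was at 0.691 to 2.07 CPM without and 12.1 to 19.5 with FIIN-3 (3.47 ± 0.28). KRT4 was counted in the luminal list, so its rise does not enter the count of basal and squamous genes below. IVL, encoding involucrin of the cornified envelope, was at 83.1 to 351.02 CPM and then at 4.66 to 10.6 (-4.80 ± 0.34, adjusted p = 4.8e-09). ANXA1 (-3.46 ± 0.27), PLAU (-4.24 ± 0.71), CD44 (-1.54 ± 0.21), ITGA6 (-1.19 ± 0.27) and ITGB4 (-0.57 ± 0.15) fell. In the list of basal, squamous and mesenchymal genes, 10 of 22 members were tested, of which 7 fell and 0 rose. The rest had too few counts to be tested. Of all genes tested 18% fell and 16.1% rose. VIM (1.00 ± 0.47), CDH3 and S100A2 did not pass.

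Among interferon response genes, 5 of 21 tested fell and 4 rose, close to the 18% and 16.1% of all genes. IFIT3 was at 6.24 to 46.5 CPM without and at 0.811 to 5.02 with FIIN-3 (-3.67 ± 0.46), and IFIT2 fell by 3.36 ± 0.45, IFIT1 by 1.63 ± 0.47 and OAS3 by 1.51 ± 0.21. MX2 (1.46 ± 0.43), OAS2, STAT2 and IFI6 rose, the last 3 by 0.47 to 0.72. Leaving out 1 library at a time ended the call of IFI6 in 7, of OAS2 in 5 and of STAT2 in 9 of the 12 fits (highest adjusted p = 0.101, 0.0655 and 0.104, edgeR). IRF9 and MX1 (0.01 ± 0.25) did not pass. The calls of ISG15 (-1.65 ± 0.47) and STAT2 were lost with the title ranges in the fit (adjusted p = 0.0982 and 0.0757, edgeR).

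Several of the largest changes lay outside the lists, counting genes whose mean log2 CPM reached 3 and whose sign was shared by both title ranges that hold the 2 groups. LAT2, an adaptor of immune receptor signalling, fell from 20.5 to 55.8 CPM to 0.279 to 1.22 (-5.91 ± 0.32), and ACOX2, a peroxisomal oxidase of bile acid intermediates, from 34.2 to 78.7 CPM to 0 to 1.42 (-5.80 ± 0.37). ITGB6 (an epithelial integrin subunit, -4.88 ± 0.42), MFSD2A (a lysophospholipid transporter, -4.71 ± 0.34), PHLDA2 (-4.56 ± 0.21), CAPN8 (a calpain protease, -4.38 ± 0.25), KRT81 (a hair keratin, -4.21 ± 0.59), SPHK1 (sphingosine kinase, -4.02 ± 0.37), MYEOV (-3.44 ± 0.23) and the serine protease PRSS23 (-3.23 ± 0.30) fell. On the other side DUSP15, an atypical dual-specificity phosphatase, went from 0.691 to 1.18 CPM up to 20.4 to 46.9 (5.199 ± 0.28). OLR1 (a lipoprotein receptor, 3.22 ± 0.34), the arrestin-domain gene ARRDC3 (2.83 ± 0.31), BCAS1 (2.76 ± 0.26), the aldehyde dehydrogenase ALDH2 (2.65 ± 0.24), FAM225A (2.61 ± 0.24), CAPN5 (2.58 ± 0.27), C2orf72 (2.58 ± 0.21), SELENBP1 (2.56 ± 0.14), TMEM52B (2.49 ± 0.29) and ARHGAP15 (2.48 ± 0.30) rose.

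With FIIN-3, many genes lay below their level in fulvestrant without FGF2. Against fulvestrant alone, which shares the FIIN-3 libraries with the main comparison, 4.6% of the 12420 genes tested were higher and 7.33% lower (11.9% together, and 21.6% with the title ranges in the fit), and 25 of 26 G1/S genes and 23 of 24 G2/M genes were lower. RRM2 was at 265.3 to 357.03 CPM in fulvestrant alone, above the 38.9 to 77.5 with FIIN-3 (-2.36 ± 0.16), and E2F1 at 18.8 to 34.2 (-1.92 ± 0.24). MKI67 (-1.59 ± 0.18), CCND1 (-0.97 ± 0.15), DUSP6 (-2.42 ± 0.30) and DUSP4 (-1.39 ± 0.17) were also lower than in fulvestrant alone. FGF2 itself, added to fulvestrant, had raised DUSP6 by 2.55 ± 0.20, CCND1 by 1.11 ± 0.16 and RRM2 by 0.73 ± 0.15, but E2F1 differed by -0.06 ± 0.21 and did not pass (4.71% of the 12387 genes tested were higher with FGF2 and 4.38% lower, 9.09% together and 19.9% with the title ranges in the fit). The FGF2 comparison shares 1 group with the main comparison and the other with the comparison against fulvestrant alone. Its values are thus not independent of either. For other genes no difference between FIIN-3 and fulvestrant alone was detected. KRT18, raised by FGF2 by 1.69 ± 0.22, differed by 0.00 ± 0.16 between FIIN-3 and fulvestrant alone, GDF15 (3.09 ± 0.33 with FGF2) by -0.09 ± 0.33, SLC2A1 by -0.07 ± 0.17 and CD44 by -0.11 ± 0.18. ERBB2, whose FGF2 effect did not pass (-0.22 ± 0.23), was 1.03 ± 0.19 above its level in fulvestrant alone, and MYC 0.86 ± 0.20 above.

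Trametinib, which acts on MEK downstream of the receptor, was given on the same medium. Both inhibitor comparisons use the same 6 libraries without inhibitor, and the difference between the inhibitors was not tested, so the values are set side by side. Trametinib raised 2.01% and lowered 1.79% of the 12188 genes tested, 3.8% together. This share was 2.44% without the library of lowest depth, trametinib replicate 1 (1505020 counts). DUSP6 was at 1.61 to 3.95 CPM with trametinib (-5.06 ± 0.24) and at 1.17 to 4.80 with FIIN-3, and DUSP4 was at 9.94 to 18.2 against 14.9 to 20.2. E2F1 was at 17.8 to 43.1 CPM with trametinib and 2.54 to 9.45 with FIIN-3, and its trametinib fold change of 0.23 ± 0.24 did not pass. RRM2 was at 215.5 to 405.1 against 38.9 to 77.5 (-0.76 ± 0.18 with trametinib), MKI67 at 52.3 to 89.2 against 16.1 to 30.5 (-0.58 ± 0.21, not called), and 2 of 26 G1/S and 7 of 24 G2/M genes fell with trametinib. PHLDA1 was at 2.60 to 17.02 CPM with trametinib (-2.19 ± 0.29) and at 37.9 to 47.1 with FIIN-3. IFIT3 was at 9.09 to 385.3 CPM with trametinib (2.57 ± 0.58) and at 0.811 to 5.02 with FIIN-3, and 12 of 20 tested interferon genes rose with trametinib. IVL was at 29.4 to 235.7 CPM with trametinib and did not pass (-0.83 ± 0.41), and DUSP15 was at 0 to 4.45.

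**Figure D3:**
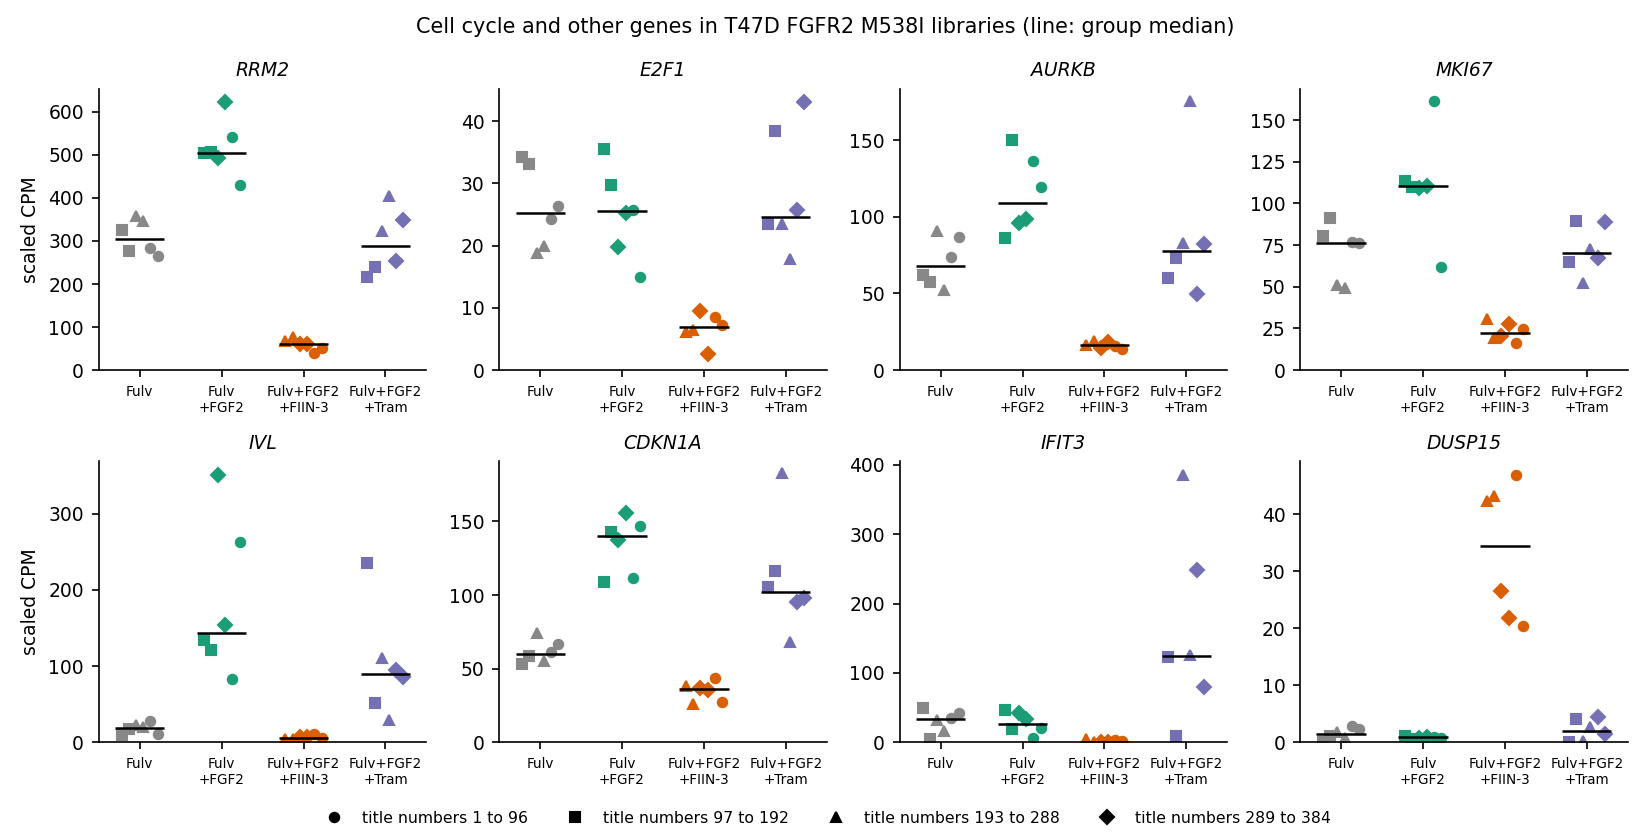
Scaled CPM on a linear axis for 8 genes in the M538I libraries given fulvestrant, fulvestrant plus FGF2, and that medium plus FIIN-3 or trametinib. Each point is a library, its shape gives the title-number range, and lines are medians. RRM2, E2F1, AURKB and MKI67 are lowest with FIIN-3, and DUSP15 is at 20.4 to 46.9 with FIIN-3 and at most 4.45 in the other groups.

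The effect of FIIN-3 was also measured without fulvestrant. In M538I cells with FGF2 alone as medium, a comparison that shares no library with the main one, 1511 genes were higher and 1569 lower with FIIN-3 (12.4% and 12.8% of 12217, 25.2% together). Of the 1997 genes that rose on fulvestrant plus FGF2, 1215 were called higher here too, which is 60.8% of that list and 80.4% of the 1511, and 0 were called lower. Of the 2236 that fell, 1382 were called lower here, 61.8% of that list and 88.1% of the 1569, and 1 was called higher. That gene is OLFM1, encoding the secreted glycoprotein olfactomedin 1. OLFM1 was at 6.70 to 17.2 CPM on fulvestrant plus FGF2 and 2.51 to 4.91 with FIIN-3 (-1.52 ± 0.28), and at 18.1 to 34.1 CPM on FGF2 and 25.9 to 42.4 with FIIN-3 (0.58 ± 0.19). The difference of the 2 effects was -2.11 ± 0.33 (adjusted p = 0.00461, edgeR), and OLFM1 was the 1 gene called of 13205 (0.00757%, with 1.961% of genes at an unadjusted p under 0.05 and 5 called by DESeq2). As 1.961% lies below the 0.05 that an exact test gives where nothing differs, this test may be conservative. The lack of other calls thus says little. CXCL12, a chemokine gene induced by estrogen, had a FIIN-3 effect of 0.03 ± 0.31 with fulvestrant and 2.07 ± 0.32 without it, but the difference of -2.05 ± 0.47 did not pass (adjusted p = 0.331, edgeR). Without fulvestrant, leaving out the library of lowest depth, FIIN-3 replicate 1 (2388698 counts), gave 1378 genes higher and 1478 lower, against 1511 and 1569. Among the 12 and 11 ERK feedback genes tested with and without fulvestrant 7 fell in each case, and all 24 G2/M genes fell in both. G1/S genes fell in 25 of 26 cases with and 20 of 26 without fulvestrant. Of the estrogen receptor targets 4 of 21 tested rose and 6 fell with fulvestrant, and 10 of 23 rose and 4 fell without it. These counts come from 2 separate fits and do not test a difference. The test of the difference called 0 of 26 G1/S genes and 1 of 25 estrogen receptor targets.

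**Figure D4:**
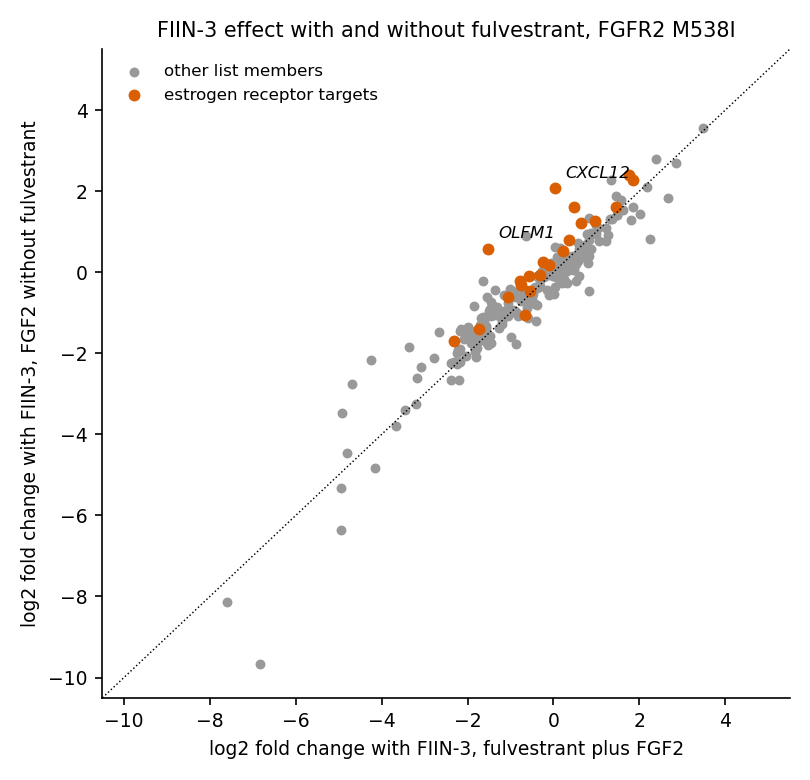
Log2 fold change with FIIN-3 on fulvestrant plus FGF2 (x axis) against that on FGF2 without fulvestrant (y axis) in M538I cells, for list members tested in both, with estrogen receptor targets in orange and a dotted line where both are equal. OLFM1 lies at -1.52 and 0.58, and CXCL12 at 0.03 and 2.07.

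The response was set beside that of the other lines by testing the difference of the FIIN-3 effect on fulvestrant plus FGF2 between lines. Between M538I and wild-type FGFR2, 0 of 13257 genes differed by edgeR (2.52% of genes at an unadjusted p under 0.05, 2 called by DESeq2). That share lies below the 0.05 that an exact test gives where nothing differs. The test may thus be conservative, and a lack of calls says little here. The DUSP6 effect was -4.94 ± 0.25 in M538I and -4.94 ± 0.20 in wild type, a difference of 0.01 with a 95% interval of -0.43 to 0.44. The interval for MKI67 was -0.60 to 0.41 and that for ESR1 -0.46 to 0.53. For RRM2 the effect was -3.08 ± 0.16 in M538I and -2.13 ± 0.14 in wild type, and the difference of -0.95 ± 0.19 did not pass (adjusted p = 0.222, edgeR). These intervals bound the difference for single genes and do not show that the lines respond alike.

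Between M538I and N550K, a substitution at the molecular brake of the FGFR2 kinase, 0.181% of the 13258 genes tested had a more positive and 1.35% a more negative effect in M538I (1.53% together). DUSP6 was at 112.9 to 190.3 CPM in N550K cells on fulvestrant plus FGF2 and still at 35.9 to 55.4 with FIIN-3, a fold change of -1.69 ± 0.17, and the difference from M538I was -3.23 ± 0.29 (adjusted p = 1.62e-08). In N550K, SPRY4 was at 11.8 to 29.8 CPM without and 0 to 2.79 with FIIN-3. The difference was -1.60 ± 0.19 for DUSP4, -2.40 ± 0.53 for ETV4 and -0.95 ± 0.23 for SPRED2, and 5 of 14 tested ERK feedback genes differed, all with the smaller fall in N550K. Among cell cycle genes, 11 of 26 G1/S and 14 of 24 G2/M genes fell more in M538I. RRM2 fell by 0.97 ± 0.16 in N550K (difference -2.09 ± 0.23) and MKI67 by 0.99 ± 0.15 (difference -1.22 ± 0.25), while AURKB fell by 0.59 ± 0.21 (difference -2.16 ± 0.28). The effects on ACOX2 (difference -3.62 ± 0.44), LAT2 (-3.50 ± 0.49) and ITGB6 (-3.04 ± 0.54) were also larger in M538I. TENM3 (1.42 ± 0.32), PHACTR1 (1.36 ± 0.30), CALD1 (1.29 ± 0.35) and PLXNA1 (1.25 ± 0.29) had the more positive effect in M538I. Not every response differed beyond the error. BTG1 rose by 1.86 ± 0.18 in N550K, with an interval of the difference of -0.15 to 0.87, and DUSP15 by 4.57 ± 0.35, with an interval of -0.31 to 1.61.

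Against the GFP and parental lines together, which have no FGFR2 construct, 750 genes had a more positive and 648 a more negative effect in M538I (5.43% and 4.69% of 13812, 10.1% together). With DESeq2's size factors in the same fit the counts were 671 and 726. For most cell cycle genes no difference was detected. MKI67 fell by 2.06 ± 0.13 in the control lines, with an interval of the difference of -0.63 to 0.28, and PLK1 by 2.01 ± 0.10, with an interval of -0.66 to 0.06. All 26 G1/S and all 24 G2/M genes fell in the control lines, where 1810 of the 13305 genes tested fell and 1417 rose. In M538I 3 G1/S genes (CCND1, CCND3 and RRM2) and 1 G2/M gene (AURKB) fell further. Of the ERK feedback genes 4 of 14 tested fell further in M538I, of the immediate early genes 5 of 12 and of the basal and squamous genes 6 of 12, while 1 of these 12 was the other way. DUSP6 was at 12.1 to 21.4 CPM in GFP and 13.02 to 17.8 in parental cells before FIIN-3, below the 82.7 to 117.9 of M538I, and its difference of effects was -2.23 ± 0.28. IVL (-3.26 ± 0.33), LAT2 (-4.51 ± 0.51), PHLDA2 (-2.77 ± 0.23) and TIMP1 (-2.38 ± 0.33) fell further in M538I. GDF15, a stress-induced cytokine gene, rose by 1.203 ± 0.22 in the control lines and fell by 3.17 ± 0.29 in M538I, a difference of -4.39 ± 0.37. OLR1 (2.24 ± 0.37), KRT4 (2.20 ± 0.31), KLHDC7A (2.08 ± 0.37) and SLC24A3 (2.00 ± 0.26) had the more positive effect in M538I, as had ESR1 (0.99 ± 0.19). KRT4 without FIIN-3 was at 0.691 to 2.07 CPM in M538I, 8.63 to 13.5 in GFP and 5.10 to 10.1 in parental cells, with no overlap. With FIIN-3 it was at 12.1 to 19.5, 18.02 to 29.3 and 12.5 to 33.04 CPM, with overlap.

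**Figure D5:**
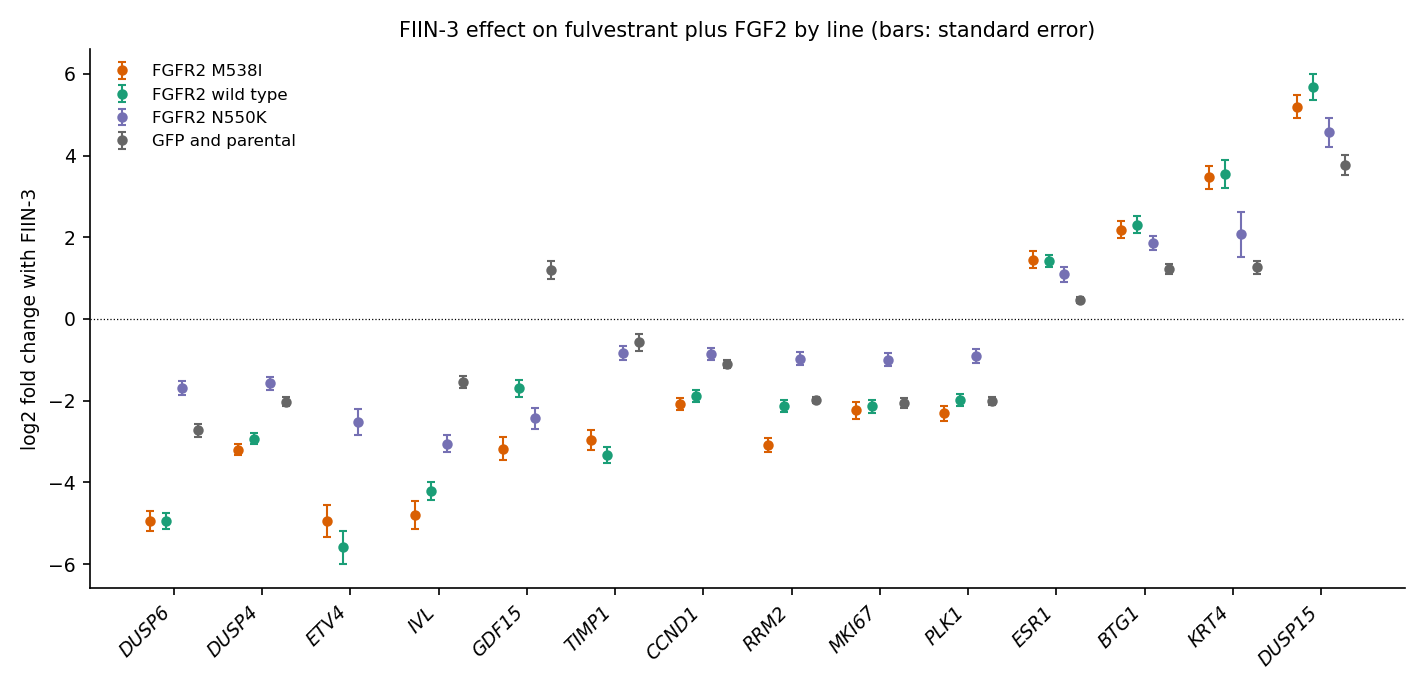
Log2 fold change with FIIN-3 on fulvestrant plus FGF2 for 14 genes in the M538I, wild-type and N550K lines and in the GFP and parental lines together, with bars for the standard error. ETV4 was not tested in the control lines. For DUSP6 the M538I and wild-type points lie at -4.94 and the N550K point at -1.69, while for GDF15 the control point lies above 0 at 1.203.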

How the data were processed

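RNA was read by SMART-Seq2. STAR and hg19 are named in the submitters' processing notes, while the counter, the annotation and the versions are not given in the sources used here. As deposited by the authors, the files hold read counts for 54592 genes and, in another table, values that read as log2(TPM + 1), since the TPM recovered from them sum to 1000000 in each library used. Among count columns 100 were used and 547 were not, and among log2 TPM columns 12 were used and 635 were not. Those 100 include 12 libraries of an FGFR2 K660N line (fulvestrant plus FGF2, with and without FIIN-3) and 5 of M538I in DMSO, which enter no comparison here, only the scaling of CPM over all libraries used and the depth median. Groups came from the sample titles. Each comparison was fitted on its own libraries with edgeR 4.0.16 under R 4.3.3 (TMM scaling, filterByExpr at its minimum count of 10, then the quasi-likelihood F test), p-values were adjusted by Benjamini-Hochberg over all genes tested, and standard errors are the absolute log2 fold change over the square root of F. Differences between lines or media are interaction terms, with 95% intervals of 1.96 standard errors; the control lines enter with a term for line. The scripts were tested on simulated counts.

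The members and the 18 gene lists (300 genes) were chosen with earlier results of these data known. Named genes are FGFR1 to FGFR4 and FGF2, list members, and up to 15 genes per direction (5 per interaction) by size of change, called at adjusted p under 0.05, with a mean log2 CPM of at least 3 and, in the main comparison, the same sign in both shared title ranges. Genes in clusters of close copies may share reads, and strand use in counting is not given.

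Alternatives were DESeq2 size factors, no count filter, DESeq2 1.42.0, limma 3.58.1 on the deposited log2 values, a replicate block for title-number ranges, only ranges with both groups, leaving out each library, and leaving out libraries with MT-RNR2 under 5% or a total under 0.333 of the median of the libraries used (7168784.5). Promoters are from RefSeq; figures were drawn with matplotlib 3.10.9, and intervals of count ratios with scipy 1.17.1. Some named genes are not reported here.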

Additional observations from a re-analysis of the deposited data

Results flagged for a closer look

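In 80 groups of 6 libraries looked at (38 genes and 2 library measures in the 2 main groups), 6 held a library far from the others; chance gives about 1 in 20. FOSL1 was at 0.112 CPM in FIIN-3 replicate 1, from the 1 read seen, and at 0 in the other 5. AREG was at 216.7 CPM in replicate 6 without FIIN-3, where the next library was at 120.9, and at 67.7 in FIIN-3 replicate 5, where the next was at 26.3. ACOX2 was at 78.7 CPM (next 49.5) and GDF15 at 337.9 (next 212.5) in replicate 6 without FIIN-3, and NDRG1 at 3.29 (next 1.73) in replicate 3 without FIIN-3. The fall of AREG, ACOX2 and GDF15 and the rise of NDRG1 were called whichever single library was left out.

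The effect of FIIN-3 differed between media or lines, by the interaction test in edgeR, for the genes named here. For OLFM1 the difference with against without fulvestrant was -2.11. Between M538I and N550K it was 1.42 for TENM3, 1.36 for PHACTR1, 1.29 for CALD1, 1.25 for PLXNA1, -3.62 for ACOX2, -3.50 for LAT2, -3.23 for DUSP6, -3.19 for SPRY4 and -3.04 for ITGB6. Between M538I and the control lines it was 2.24 for OLR1, 2.20 for KRT4, 2.08 for KLHDC7A, 2.00 for SLC24A3, -4.51 for LAT2, -4.39 for GDF15, -3.26 for IVL, -2.77 for PHLDA2 and -2.38 for TIMP1. What lies behind these differences was not tested.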

How the results depend on the processing

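No named gene that passed changed direction under any alternative run. Among them 15 lost their call with the title ranges in the fit, and 7 others gained one (FRS2, GRB2, RBL2, SERPINA6, RRP12, INSIG1 and ACACA). With limma 8 named genes lost and 9 gained a call, and without a count filter 4 lost and 5 gained one. Another count of 15, partly of other genes, lost their call when 1 library was left out (BCL2L11, CA12, CDK4, CHAC1, CTH, DDIT3, IFI6, IRS1, OAS2, PFKFB4, PIP, PMAIP1, PSAT1, STAT2 and TGFA, each in 1 to 9 of the 12 fits, adjusted p at most 0.13, edgeR). The count of genes higher was 1024 and of genes lower 1381 with only the title ranges that hold both groups, where fewer libraries entered, and 35 named genes lost their call there (SHC1, TGFA, IRS1, GRB10, CDK4, CDKN2D, TOB1, CA12, SLC7A5, AZGP1, PIP, ITGB4, IFI6, IFIT1, ISG15, MX2, OAS2, STAT2, NCL, RRP9, BOP1, HMGCS1, MVD, PFKFB4, BCL2L11, BMF, PMAIP1, BAK1, BIRC3, DDIT3, TRIB3, CHAC1, SESN2, CTH and COL1A1). Leaving out 1 library at a time gave 1721 to 2103 higher and 1952 to 2315 lower. With a replicate block for title ranges the main counts were 1716 and 1879. Libraries of the same range and different group correlated at a mean of 0.111 in their deviations (8 pairs, -0.481 to 0.566). Those of different ranges correlated at -0.0319 (28 pairs). The reported fits did not treat the ranges as pairs, but so few and widely spread values cannot show that range effects are absent. Without FIIN-3, FGFR2 was at 135.57 and 212.61 CPM in the first range and at 717.75 and 759.63 in the fourth. For the other comparisons the block gave 5 genes (with against without fulvestrant), 2 (M538I minus wild type), 2684 against 1481 (FIIN-3 against fulvestrant alone, with 47.5% against 38.6% of calls higher) and 2467 against 1126 (FGF2 on fulvestrant), and 2.55% of genes tested for M538I minus N550K, against 1.53%. DESeq2 gave 5 and 2 genes for the first of these, 2.6% of genes for N550K and 5.87% for trametinib, against 3.8%. Without a count filter the difference by fulvestrant had 11 genes, that from wild type 3, while N550K had 0.806% and trametinib 2.32% of a larger number of genes tested, and 22.6% of the N550K calls were more positive, against 11.8% in the reported fit. Trametinib had 2.44% without its low-depth library. In these cases the cause was not tested. Higher calls were 36% of calls with limma and 47.2% with edgeR. Leaving out 1 GFP library with FIIN-3 at a time gave 1263 to 1369 genes differing from the control lines, with 45% more positive without GFP FIIN-3 replicate 1. Depth limits low genes: with FIIN-3 the 6 libraries held 0 to 2 reads each of SPRY4 and ETV5, 0 or 1 of FOSL1, 0 to 4 of EGR1, 0 to 6 of FOS, 0 to 7 of ETV4 and PLAU, 2 to 8 of LAT2 and 0 to 14 of ITGB6 and ACOX2, so their folds are imprecise.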

Other observations

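LDHA, which makes lactate from pyruvate, was at 808.7 to 1649 CPM without and 281.4 to 414.0 with FIIN-3 (-1.63 ± 0.17), and the glucose transporter gene SLC2A1 fell by 1.21 ± 0.16, PGK1 by 0.79 ± 0.15 and EGLN3 by 0.99 ± 0.18, while the hypoxia and differentiation gene NDRG1 rose from 0.950 to 3.29 CPM up to 6.58 to 16.5 (2.66 ± 0.33). In that list 4 of 13 tested genes fell and 2 rose, against 18% and 16.1% of all genes. Of 13 amino acid stress genes tested 7 fell and 1 rose, against 18% and 16.1% of all genes. GDF15 was at 143.1 to 337.9 CPM without and 11.2 to 40.4 with FIIN-3. The cystine transporter gene SLC7A11 fell by 2.19 ± 0.23, but ATF4 itself did not pass (0.28 ± 0.13). With the title ranges in the fit, the calls of CHAC1 and CTH in that list and of PFKFB4 in the glycolysis list were lost (adjusted p = 0.0713, 0.0783 and 0.0831, edgeR). Among 16 ribosome biogenesis genes 7 fell, by 0.44 to 0.89, and 0 rose, with RRP9 lost in the same way (adjusted p = 0.274, edgeR). Among 16 genes of sterol and fatty acid synthesis 4 rose (SREBF2, LSS, HMGCS1 and MVD, by 0.43 to 1.21) and 0 fell.

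Among genes that regulate apoptosis 3 rose and 3 fell of 11 tested, where 34.1% of all genes were called. BCL2L1, encoding the survival protein BCL-XL, was at 74.3 to 119.8 CPM without and 182.8 to 194.5 with FIIN-3 (0.99 ± 0.13), and the death-promoting genes BMF (1.34 ± 0.33) and BCL2L11 (1.23 ± 0.40) rose as well, the last with its call lost in 2 of the 12 fits that left out 1 library (highest adjusted p = 0.0571, edgeR). PMAIP1 (-1.48 ± 0.49), BIRC3 (-1.57 ± 0.46) and BAK1 (-0.67 ± 0.17) fell, of which the calls of PMAIP1 and BIRC3 were lost with the title ranges in the fit (adjusted p = 0.115 and 0.144, edgeR). Among markers of other cell types, COL1A1 rose by 0.70 ± 0.20 at 9.22 to 29.02 CPM over both groups, and CD68 fell by 1.62 ± 0.48 at 0 to 2.68 CPM.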
